A study of Homo sapiens with 59 samples.

Results

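H2AK119ub, a monoubiquitylation of histone H2A, was followed at the promoters of 6 genes, CLDN15, NLRP3, NKX6-3, CTLA4, CEBPE and NUDT19, in NCI-H661, a cell line from a human large cell carcinoma of the lung. The genes were chosen by the covered length of H2AK119ub peaks, since their promoters led, or stood near the top of, the gains with doxycycline (DOX) in 1 of 3 hairpin lines, out of 20007 protein-coding promoters and 473 that gained the mark in any line. CLDN15, NLRP3, NKX6-3 and CTLA4 were chosen in shDPPA2, NUDT19 in shDPPA4 and CEBPE in shDPPA2+4. Each line carried tetracycline-inducible hairpins against DPPA2, DPPA4 or both, as a sorted bulk population, and was given 2 µg/ml DOX or water (H2O) for 7 days. The parental line was treated for 1 day with DMSO or with A-485, which blocks acetylation by p300 and CBP, at 10 µM. Chromatin immunoprecipitation gave 51 peak lists, 36 from the hairpin lines (H3K4me3, H3K27me3 and H2AK119ub, 2 libraries for each mark, line and treatment) and 15 from parental cells (H3K27ac, H3K27me3, H2AK119ub and 1 SUZ12 library). No non-targeting hairpin was analysed here, so effects of DOX and of the knockdown cannot be told apart, and neither DPPA transcript was measured in these libraries.

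H2AK119ub is written by Polycomb repressive complex 1 through its RING1A and RING1B ligases, and H3K27me3 by Polycomb repressive complex 2, of which SUZ12 is a core subunit. Both marks are typical of repressed developmental and lineage genes, commonly at CpG islands, whereas H3K4me3 marks active or poised promoters and H3K27ac active promoters and enhancers. DPPA2 and DPPA4 are embryonic DNA-binding proteins known to keep CpG-rich bivalent promoters in pluripotent cells primed with H3K4me3. Among the 6 genes, CLDN15 encodes a tight junction protein that forms cation pores in intestinal epithelium. NLRP3 encodes the sensor of an inflammasome that activates caspase-1, and CTLA4 an inhibitory receptor of T cells. NKX6-3 and CEBPE encode transcription factors of gastric epithelium and of maturing granulocytes, and NUDT19 a peroxisomal coenzyme A hydrolase.

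Of the 6 promoters, 5 held fewer CpG sites than the median promoter. In the 3001 bp centred on the transcription start site (TSS), CTLA4 had 18 CpG, NLRP3 45, CEBPE 68, CLDN15 92, NKX6-3 111 and NUDT19 154, against a median of 115 over all promoters. NUDT19 was the member above that median, and 3.85% of promoters had fewer CpG than CTLA4. The 276 promoters gained in shDPPA2 had a median of 67 CpG, the 70 gained in shDPPA4 93 and the 154 gained in shDPPA2+4 96. The sequences below are the 250 bases before the RefSeq start (GRCh38.p14, written 5′ to 3′ on the gene's strand, CpG in capitals) of the gene leading in shDPPA4, the gene leading in shDPPA2+4 and CTLA4, gained in one line and lost in another. They lie at chr19:32691571-32691820 (plus strand, where the divergent transcript NUDT19-DT is also annotated), chr14:23119256-23119505 (minus strand) and chr2:203867521-203867770 (plus strand).
NUDT19: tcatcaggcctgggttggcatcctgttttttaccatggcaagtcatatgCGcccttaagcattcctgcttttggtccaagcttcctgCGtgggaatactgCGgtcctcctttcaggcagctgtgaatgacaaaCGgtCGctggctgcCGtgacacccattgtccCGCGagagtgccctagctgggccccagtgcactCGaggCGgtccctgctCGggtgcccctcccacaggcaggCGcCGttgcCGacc
CEBPE: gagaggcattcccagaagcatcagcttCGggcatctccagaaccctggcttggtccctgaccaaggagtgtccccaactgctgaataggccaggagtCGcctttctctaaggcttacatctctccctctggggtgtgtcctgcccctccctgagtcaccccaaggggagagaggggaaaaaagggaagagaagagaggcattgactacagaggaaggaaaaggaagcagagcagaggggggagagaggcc
CTLA4: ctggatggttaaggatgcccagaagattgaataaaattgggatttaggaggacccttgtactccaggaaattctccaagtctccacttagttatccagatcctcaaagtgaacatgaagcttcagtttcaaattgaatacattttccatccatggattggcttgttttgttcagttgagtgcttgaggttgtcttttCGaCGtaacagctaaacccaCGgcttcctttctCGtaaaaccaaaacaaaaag
They hold 14, 2 and 4 CpG. Of the 35116 promoters in the RefSeq table, 44.8% had as many CpG as NUDT19 or more in this window, 85.3% as many as CEBPE or more, and 70.7% as many as CTLA4 or more.

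A promoter was called marked when at least 300 bp of its 3001 bp lay under EPIC2 peaks with a log2 fold over input above 1, and gained when both DOX libraries and neither H2O library of a line were marked. By this call 276 promoters (1.38%) gained H2AK119ub in shDPPA2, 70 (0.35%) in shDPPA4 and 154 (0.77%) in shDPPA2+4, while 541 (2.7%), 968 (4.84%) and 443 (2.21%) lost it. These values chose the genes and carry no test. CLDN15, NLRP3 and NKX6-3 held the top 3 places of shDPPA2, with rises in mean coverage of 2800 bp, 2686.5 bp and 2601 bp. CTLA4 was 12th with 2250.5 bp, between KCNJ6 (2294 bp) and LCP1 (2177 bp), and ASTN1 in 4th place (2450 bp) was the highest gene left out. NUDT19 led in shDPPA4 by a narrow margin, with 1771 bp against 1750.5 bp for ENSG00000281348. CEBPE led in shDPPA2+4 with 2646 bp, well ahead of ITGAV (1972.5 bp).

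The H2AK119ub libraries differed in how much of the genome their peaks covered. In shDPPA2, peaks covered 42.0 and 56.2 Mb in H2O and 99.4 and 98.2 Mb in DOX. The lowest coverage among the 12 hairpin libraries was 38.2 Mb, in shDPPA4 DOX replicate 1, and 5 of the 6 genes (all but NUDT19) were at 0 bp there. Over all promoters that library had 46.2% marked, more than the 28.6% to 41.7% of the 3 DOX replicate 3 libraries, which covered 90.3 to 98.2 Mb. In both shDPPA2 H2O libraries, CLDN15, NLRP3 and NKX6-3 were at 0 bp. Promoters carrying neither H3K4me3 nor H3K27me3 in H2O also moved with DOX in shDPPA2, from 6.07% and 10.1% marked to 15.8% and 14.2%, whereas the share of all promoters marked was 51.1% and 50.0% in H2O and 55.6% and 28.6% in DOX. In the 3 DOX replicate 3 libraries 51.6%, 52.2% and 42.1% of the covered bases lay under H3K27me3 peaks of the matching library, against 15.2% to 30.2% in the other 9. The matching H3K27me3 libraries covered 217 to 319 Mb in DOX replicate 3 and 175 to 258 Mb in replicate 1. In H2O replicate 3 they covered 48.8 to 95.4 Mb, so the shares there rest on thin lists. The part of these differences in the gains was not tested.

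**Figure D1:**
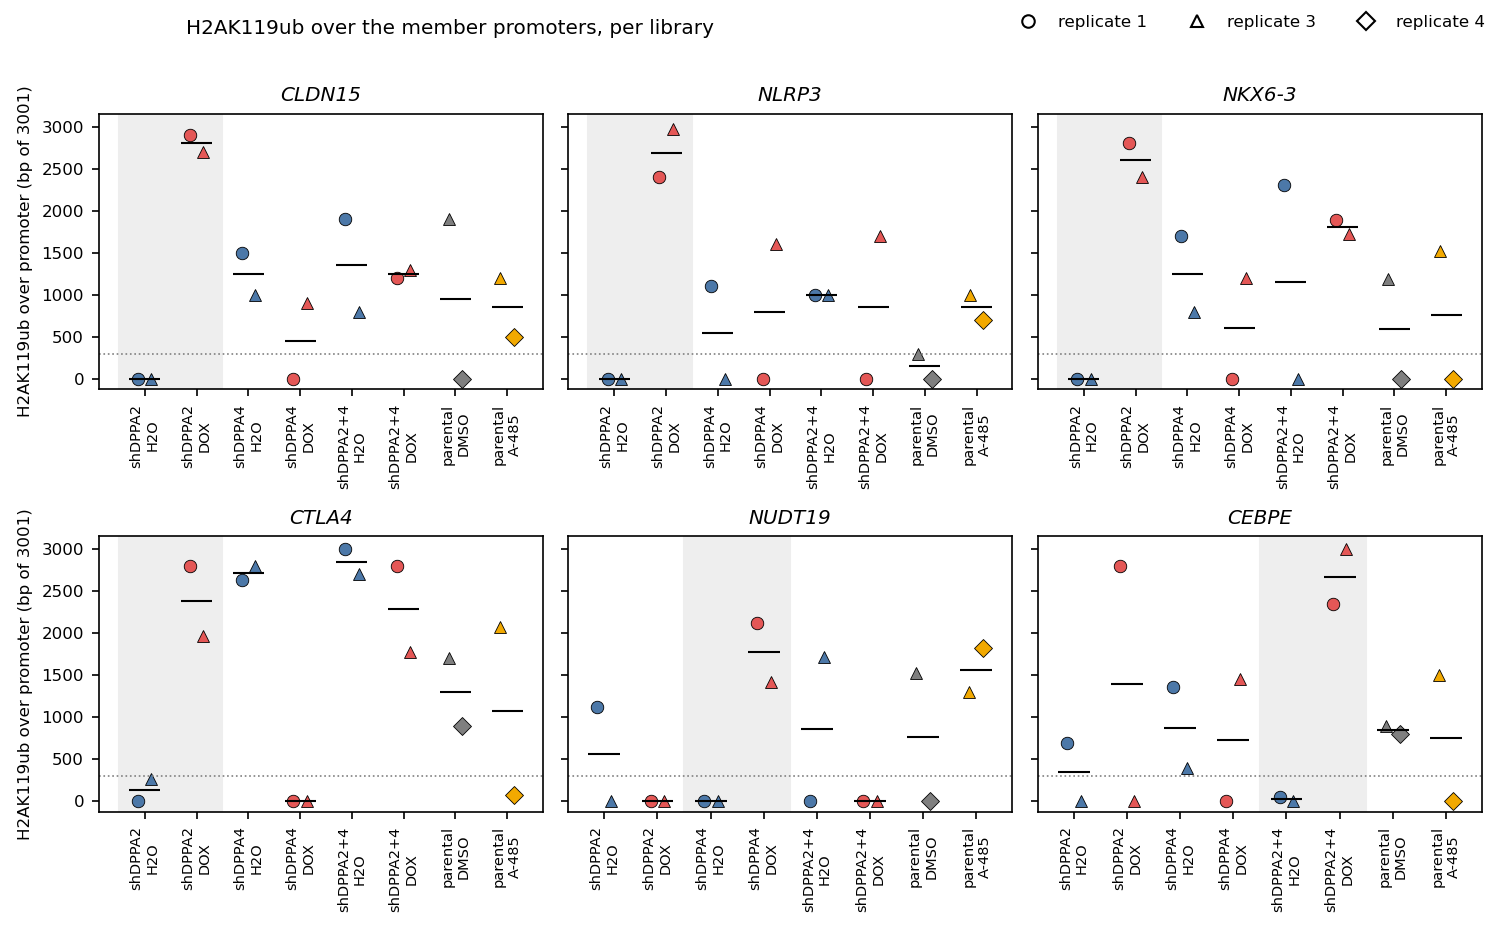
Covered bp of each 3001 bp promoter (vertical axis) in the 16 H2AK119ub libraries, by line and treatment (horizontal axis). Points are libraries, shaped by replicate, bars are means of 2, the dotted line is the 300 bp minimum and the grey band the line that chose the gene. In shDPPA2, CLDN15, NLRP3 and NKX6-3 go from 0 bp to at least 2400 bp, while CTLA4 falls to 0 bp in both shDPPA4 DOX libraries.

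CLDN15 (ENSG00000106404.14, chr7:101232092-101238820, minus strand) showed the largest rise of the 6, and no gain was called for it in the other lines. In shDPPA2 its promoter had 0 and 0 bp in H2O and 2899 and 2701 bp in DOX (replicates 1 and 3). The DOX peaks covering most of it were 4500 and 2400 bp wide, with 122 reads over 15 in the input and 93 over 6, at log2 folds of 1.95 and 2.14. No H2AK119ub peak of any strength touched the promoter in the 2 H2O libraries. In shDPPA4 the promoter was covered in H2O, by 1502 and 1001 bp, and had 0 and 899 bp in DOX. In shDPPA2+4 it had 1899 and 800 bp in H2O and 1200 and 1300 bp in DOX, so the treatments overlapped. Over the gene with 10 kb on each side, coverage in shDPPA2 was 1400 and 900 bp in H2O and 9200 and 4500 bp in DOX. FIS1, a mitochondrial fission gene whose TSS is 7279 bp away, had 400 and 0 bp in shDPPA2 H2O and 1020 and 0 bp in DOX, so its promoter was marked in 1 library of each treatment.

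NKX6-3 (ENSG00000165066.13, chr8:41645177-41650817, minus strand) rose in the line that chose it from 0 bp, as CLDN15 did. In shDPPA2 its promoter had 0 and 0 bp in H2O and 2801 and 2401 bp in DOX, and there too no peak of any strength touched it in H2O. In shDPPA4 the values were 1701 and 800 bp in H2O and 0 and 1201 bp in DOX. In shDPPA2+4 they were 2301 and 0 bp in H2O and 1884 and 1717 bp in DOX. The treatments overlapped in both of those lines. Its window with 10 kb on each side carried 1917 and 5900 bp in shDPPA2 H2O and 9900 and 11117 bp in DOX. Peaks were thus present nearby in H2O, where the promoter had none. Reads in the region over the promoter that had a peak in every hairpin library, chr8:41646901-41655000, changed by -0.51 ± 0.49 (log2, SE) over shDPPA4 and shDPPA2+4, with an edgeR adjusted p of 0.775. Both replicate 1 pairs were lower with DOX (85.3 to 18.9 and 127 to 62.4 in TMM-scaled CPM) and both replicate 3 pairs higher (105 to 126 and 74.6 to 142). Without the H2O replicate 1 library of shDPPA2+4 the change was 0.09, and without the DOX replicate 3 library of shDPPA4 it was -1.09.

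NLRP3 (ENSG00000162711.18, chr1:247416156-247449108, plus strand) gained the mark inside a region that also carried H3K27me3. Its promoter had 0 and 0 bp of H2AK119ub in shDPPA2 H2O and 2400 and 2973 bp in DOX, again with no weaker peak in H2O. In shDPPA4 it had 1100 and 0 bp in H2O and 0 and 1601 bp in DOX. In shDPPA2+4 it had 1000 and 1000 bp in H2O and 0 and 1701 bp in DOX. Within DOX the promoter was thus covered in all 3 replicate 3 libraries but in only 1 of 3 replicate 1 libraries. Over the gene with 10 kb on each side, the replicate 3 DOX libraries had 22400, 18800 and 17000 bp, in shDPPA2, shDPPA4 and shDPPA2+4, whereas replicate 1 had 11108, 500 and 1000 bp. The olfactory receptor gene OR2B11, whose TSS lies 41931 bp from that of NLRP3, had 0 bp in both shDPPA2 H2O libraries and 504 and 1204 bp in DOX.

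CTLA4 (ENSG00000163599.18, chr2:203853888-203873965, plus strand) moved in opposite directions in shDPPA2 and shDPPA4. Its promoter had 0 and 271 bp in shDPPA2 H2O and 2801 and 1971 bp in DOX. In shDPPA4 it had 2630 and 2801 bp in H2O and 0 and 0 bp in DOX, which is a loss by the call that 4.84% of all promoters met there. In shDPPA2+4 it was covered in every library, by 3001 and 2701 bp in H2O and 2801 and 1771 bp in DOX. Peaks below the fold filter were present wherever the filtered value was 0. In shDPPA2 H2O the peak covering most of the promoter had log2 folds of 0.46 and 0.92 over input, against 1.41 and 1.05 in DOX. In shDPPA4 the folds were 1.16 and 1.19 in H2O and 0.72 and 0.90 in DOX. With all deposited peaks counted, the promoter was covered by 1600 to 3001 bp in each of the 12 hairpin libraries, and neither the gain nor the loss was called. Over the gene with 10 kb on each side, filtered coverage in shDPPA2 overlapped between treatments, at 10613 and 17600 bp in H2O and 19313 and 13300 bp in DOX. The region with a peak in every hairpin library, chr2:203833701-203864000, lies upstream of the promoter, and its reads changed by 0.06 ± 0.31 (log2, SE) over shDPPA4 and shDPPA2+4 (edgeR adjusted p of 0.967).

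**Figure D2:**
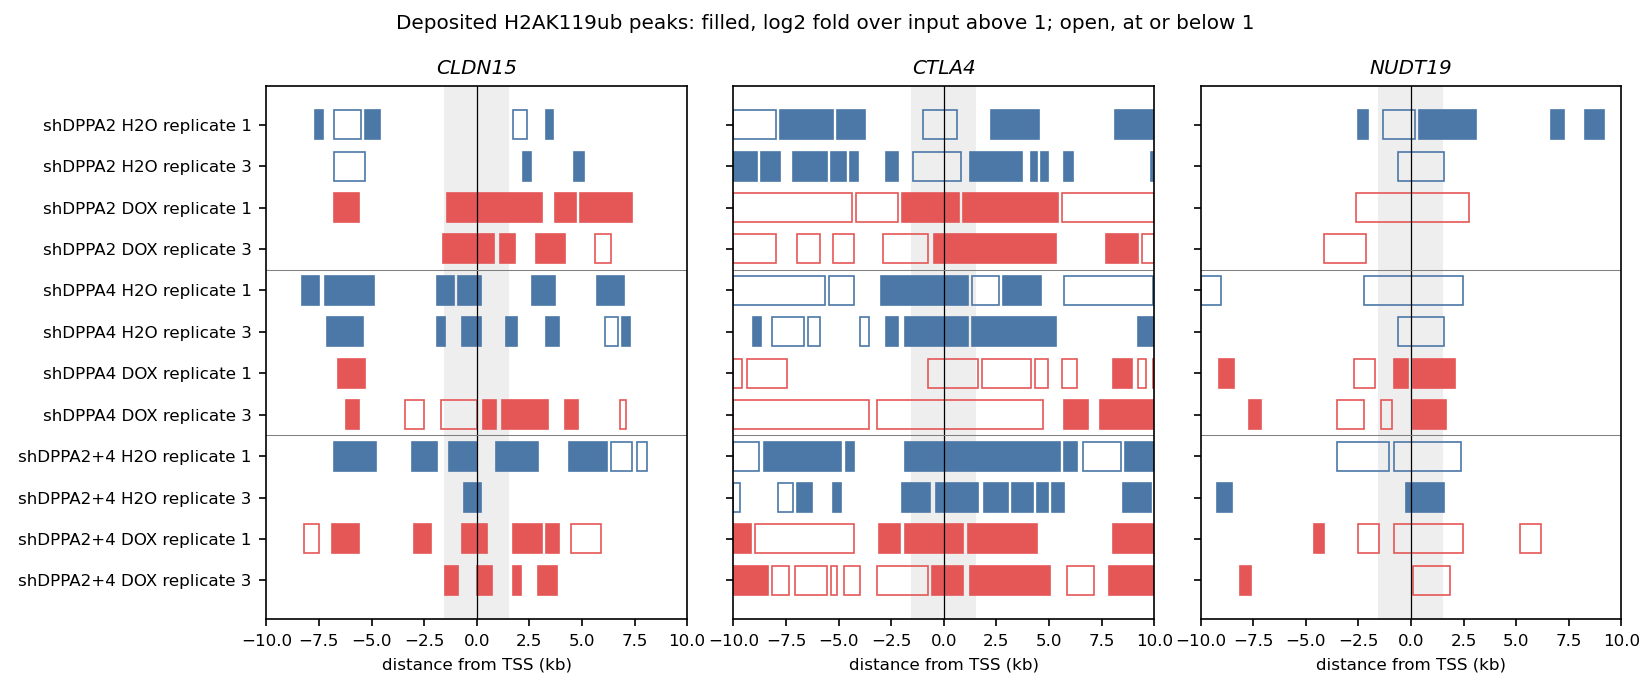
Deposited H2AK119ub peaks within 10 kb of the TSS (horizontal axis, distance in kb on the gene's strand) in the 12 hairpin libraries (rows) for CLDN15, CTLA4 and NUDT19. Filled bars are peaks with log2 fold over input above 1, open bars weaker peaks, and the grey band is the promoter. At CLDN15 the promoter band is empty in shDPPA2 H2O, whereas at CTLA4 and NUDT19 open bars cross it in H2O of the line that chose them.

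CEBPE (ENSG00000092067.7, chr14:23117036-23120256, minus strand) gained the mark in shDPPA2+4, where its promoter had 55 and 0 bp in H2O and 2346 and 3001 bp in DOX. H2O replicate 1 also had a weaker peak of 800 bp (log2 fold of 0.57), and all deposited peaks there covered 855 bp of the promoter. The DOX peaks had log2 folds of 2.24 and 1.38. In shDPPA2 the filtered values were 700 and 0 bp in H2O and 2801 and 0 bp in DOX. There the DOX replicate 3 library had peaks over 2801 bp that stayed below the filter, the one covering most of it at a log2 fold of 0.79. In shDPPA4 the promoter had 1355 and 400 bp in H2O and 0 and 1455 bp in DOX. Over the gene with 10 kb on each side the DOX libraries of shDPPA2 were above those in H2O, at 7700 and 9500 bp against 700 and 2100 bp, as for 20% of all genes, and the promoter itself was not called in that line.

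NUDT19 (ENSG00000213965.4, chr19:32691821-32713792, plus strand) gained the mark in shDPPA4, with 0 and 0 bp in H2O and 2121 and 1421 bp in DOX. Its H2O libraries were not without peaks. One of 4700 bp with 179 reads over 49 in the input had a log2 fold of 0.85, and one of 2200 bp with 63 over 24 had 0.90. The DOX peaks covering most of the promoter had 123 reads over 18 and 81 over 12, at log2 folds of 1.32 and 1.09. With all deposited peaks the H2O promoter was covered by 3001 and 2121 bp and the gain was not called. In shDPPA2 the filtered values were 1121 and 0 bp in H2O and 0 and 0 bp in DOX, and in shDPPA2+4 they were 0 and 1721 bp in H2O and 0 and 0 bp in DOX. The log2 folds of its promoter peaks stayed between 0.77 and 1.32 across the 11 hairpin libraries that had one, so that they lay close to the filter on either side. TDRD12, a Tudor domain gene of the piRNA pathway whose TSS is 27946 bp away, had 700 and 767 bp in shDPPA4 H2O and 0 and 200 bp in DOX.

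**Figure D3:**
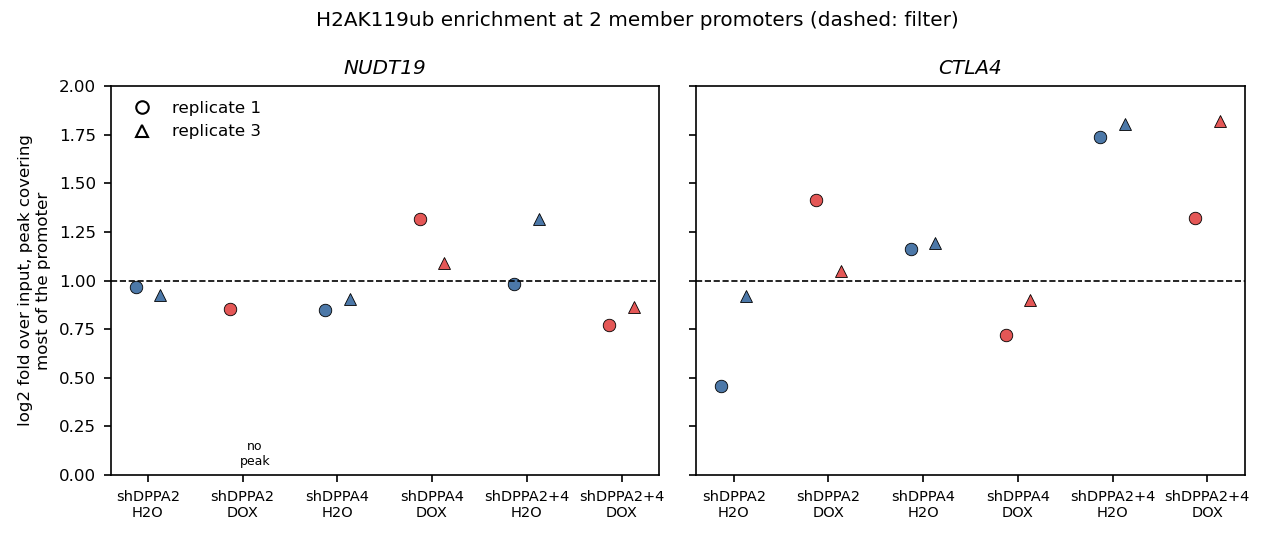
Log2 fold over input (vertical axis) of the H2AK119ub peak that covers most of the NUDT19 or CTLA4 promoter, by line and treatment (horizontal axis), 1 point for each library. The dashed line is the filter at 1. In shDPPA4, NUDT19 goes from 0.85 and 0.90 in H2O to 1.32 and 1.09 in DOX, and CTLA4 from 1.16 and 1.19 to 0.72 and 0.90.

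Outside the line that chose them, none of the 12 combinations of gene and line was gained and 1, CTLA4 in shDPPA4, was lost. Over all promoters the gained shares in the 3 lines were 1.38%, 0.35% and 0.77%, so that 0 of 12 is near the background. The lost shares were 2.7%, 4.84% and 2.21%, and with all deposited peaks the CTLA4 loss was not called. Leaving out the replicate 1 libraries gave 2 gains, NLRP3 in shDPPA4 and NKX6-3 in shDPPA2+4, which then rested on single replicate 3 libraries. Under that setting 4.13%, 5.27% and 6.65% of all promoters were gained in shDPPA2, shDPPA4 and shDPPA2+4. Over all regions with an H2AK119ub peak in every hairpin library, edgeR called 0 of 6161 (0%) over shDPPA4 and shDPPA2+4, with 472 at an unadjusted p under 0.05 and 20 called by DESeq2. The merged regions numbered 170847, and those gained or lost as peaks were not tested. These 2 lines chose NUDT19 and CEBPE, so for those genes the contrast is not outside the choosing line. The study used its own peak sets, tested each line separately and normalised on large genomic bins. It reports a substantial H2AK119ub loss in both lines.

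The other marks split the 6 genes into 3 kinds. CLDN15, CEBPE and NKX6-3 carried no H3K27me3 over the promoter in any of the 18 libraries of that mark. CLDN15 and CEBPE also had 0 bp of H3K4me3 in all 12 libraries, while NKX6-3 had 500 bp in H2O and 700 bp in DOX of shDPPA2+4 replicate 2 and 0 bp in the other 10. CTLA4 and NLRP3 carried H3K27me3 and no H3K4me3. CTLA4 had 1971 to 3001 bp of H3K27me3 in each of the 18 libraries and 2830 bp of SUZ12, and NLRP3 was marked in 17 of 18, with 173 bp of SUZ12. NUDT19 carried 2621 to 3001 bp of H3K4me3 in all 12 libraries, no H3K27me3 in any, and H3K27ac in all 4 parental libraries. NUDT19 therefore had the marks of an active promoter, and a description of the set as silent does not hold for it. RNA was not measured in these libraries. Among all promoters gained in shDPPA2, 47.1% carried neither H3K4me3 nor H3K27me3 in H2O and 24.3% H3K27me3 alone, against 23.1% and 3.67% of all promoters. H3K4me3 alone made up 11.6% there, against 58.7%. In shDPPA4 and shDPPA2+4 it was the largest class of gained promoters, at 42.9% and 48.1%, against 58.4% and 58.7% of all promoters. Neither mark was carried by 32.9% and 32.5% of the gained, against 22.8% and 23.4%.

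**Figure D4:**
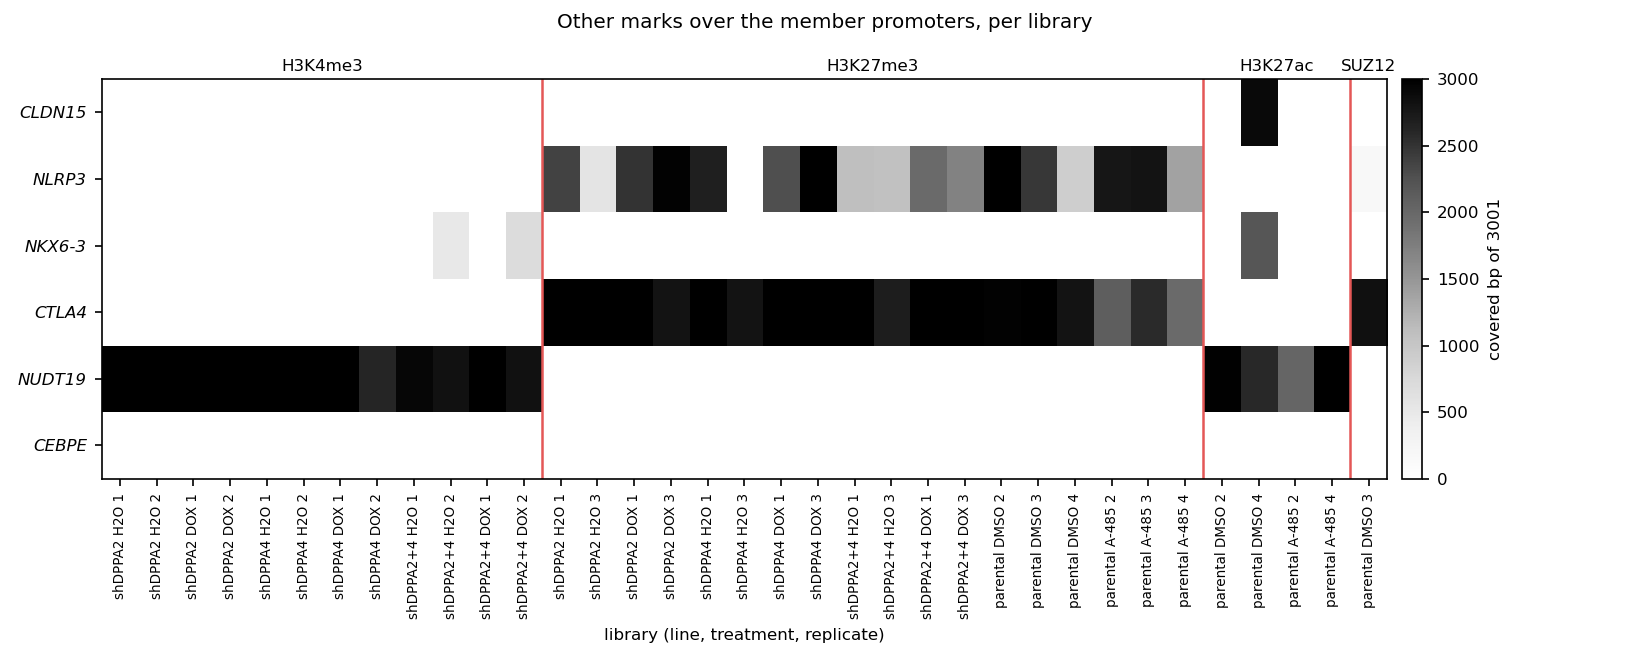
Covered bp of each 3001 bp promoter (grey scale) for the 6 genes (rows) in the 35 libraries of H3K4me3, H3K27me3, H3K27ac and SUZ12 (columns, labelled by line, treatment and replicate). Only peaks above the fold filter are counted. NUDT19 is dark for H3K4me3 and H3K27ac, CTLA4 and NLRP3 for H3K27me3, and CEBPE is blank throughout.

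H3K27me3 over NLRP3 was broader with DOX in 5 of 6 pairs, which did not pass the test. The promoter had 2373 and 573 bp in shDPPA2 H2O and 2501 and 2973 bp in DOX. It had 2673 and 0 bp in shDPPA4 H2O and 2273 and 3001 bp in DOX, and 1101 and 1073 bp in shDPPA2+4 H2O and 1973 and 1701 bp in DOX. The means were 1299 ± 1034 bp and 2404 ± 527 bp (SD, n = 6), with an exact two-sided sign-flip p of 0.0938, adjusted to 0.75 over 24 tests. Over the gene with 10 kb on each side they were 21136 ± 10411 bp and 33203 ± 3369 bp (exact p = 0.0625, adjusted 0.75). With 6 pairs p cannot go below 0.03125, so a single one of the 24 tests could not pass after adjustment. The H2O replicate 3 libraries covered 48.8 to 95.4 Mb of the genome with H3K27me3, against 217 to 319 Mb in DOX replicate 3 and 175 to 258 Mb in replicate 1 (lowest and highest over both treatments), and the part of this in the NLRP3 values was not tested. Counted as reads, the NLRP3 region chr1:247412301-247444900 changed by 0.17 ± 0.16 (log2, SE; edgeR adjusted p of 0.52).

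Scaled H3K27me3 reads in the domain that holds CTLA4, chr2:203813101-203906400, were lower with DOX in 5 of 6 pairs, and the change did not pass the edgeR test. In replicate 1 the TMM-scaled CPM (reads in peaks relative to the library) were 902 in H2O and 723 in DOX for shDPPA2, 851 and 903 for shDPPA4, and 935 and 801 for shDPPA2+4. In replicate 3 they were 1101 and 479, 1644 and 381, and 1051 and 579. The difference was wide in replicate 3 and narrow in replicate 1, where shDPPA4 went the other way. Unscaled reads in replicate 3 went from 1873 to 2266, 1383 to 2594 and 1387 to 2382. In replicate 1 they went from 3960 to 5533, 6568 to 5366 and 4650 to 4604. All kept peaks of H2O replicate 3 held 2227464, 1085365 and 1748622 reads, against 7295874, 10345651 and 5989134 in DOX replicate 3. The part of this in the scaled values was not tested. The mean change was -0.77 ± 0.22 (log2, SE), with an edgeR adjusted p of 0.111 over 14942 regions. DESeq2 gave -0.79 with an adjusted p of 0.0242, and edgeR without the H2O replicate 1 library of shDPPA4 gave -0.99 with an adjusted p of 0.0081. Over the H3K27me3 regions with a peak in every hairpin library edgeR called 0 of 14942 (0%), with 3695 below 0.05 before adjustment. DESeq2 called 1470 regions, and edgeR without that 1 library called 2983. Covered promoter bp did not show this change, since the CTLA4 promoter was nearly filled in every hairpin library.

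**Figure D5:**
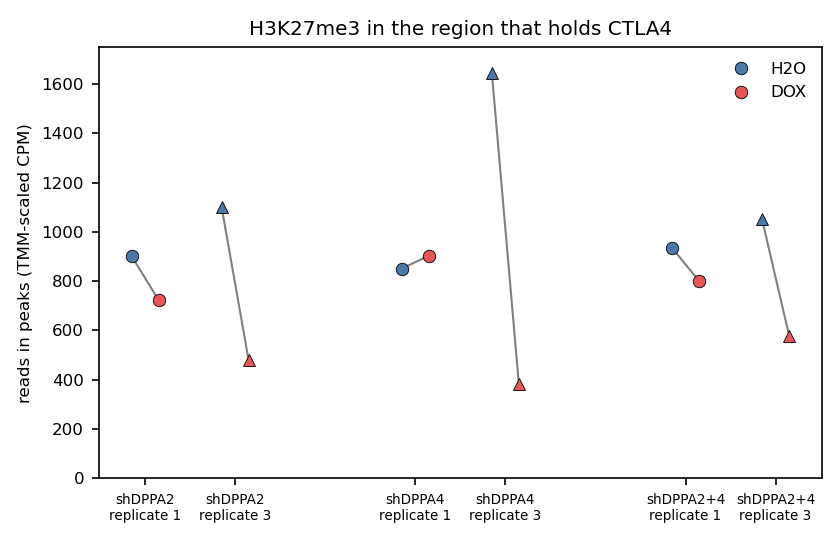
Reads in H3K27me3 peaks of the CTLA4 domain, in TMM-scaled CPM (vertical axis), for each pair of H2O and DOX libraries joined by a line (horizontal axis, line and replicate). Replicate 3 pairs go from 1051 to 1644 in H2O to 381 to 579 in DOX, and replicate 1 pairs differ by less.

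No H3K4me3 region near the genes passed the test. NUDT19, the only member with the mark over its promoter in every library, had a mean of 2958 ± 74.2 bp in H2O and 2908 ± 158 bp in DOX (SD, n = 6; exact sign-flip p = 1), and its reads changed by -0.03 ± 0.03 (log2, SE; edgeR adjusted p of 0.562). The peak near CLDN15 lies over the FIS1 start, chr7:101243301-101246700, and changed by -0.09 ± 0.04 (edgeR adjusted p of 0.147). Near the 3′ end of NLRP3 a peak of 700 to 1100 bp was present in all 12 libraries, at a log2 change of 0.16 ± 0.16 (edgeR adjusted p of 0.557). The NKX6-3 window held 1200 to 4800 bp and the CTLA4 and CEBPE windows none. Over the H3K4me3 regions with a peak in every library edgeR called 115 of 22060 (0.521%), 42 higher and 73 lower. None of them touched a member with its 10 kb on each side.

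After A-485 no H2AK119ub region at the 6 genes passed the edgeR test, and covered bp of single promoters were not tested with 2 libraries for each treatment. H2AK119ub peaks covered 78.2 and 16.6 Mb in DMSO (replicates 3 and 4) and 57.7 and 23.6 Mb in A-485. All 6 genes were marked in both replicate 3 libraries, and in replicate 4 it was 2 of 6 in DMSO and 3 of 6 in A-485. Over all promoters the marked shares were 38.2% in DMSO and 32.6% in A-485 of replicate 3, and 19.3% and 22.5% in replicate 4. In DMSO replicate 3, 46.3% of the covered bases lay under H3K27me3 of the matching library, against 10.9% in DMSO replicate 4. Those H3K27me3 libraries covered 284 and 22.0 Mb of the genome, so the lower share rests on a thin list. NLRP3 was the 1 gene whose treatments did not overlap, with 300 and 0 bp in DMSO and 1000 and 700 bp in A-485. Of all promoters, 1.55% had both A-485 libraries above both DMSO libraries and 4.17% had them below. Without DMSO replicate 3 its DMSO value was 0 bp. CTLA4 had 1701 and 900 bp in DMSO and 2071 and 71 bp in A-485, and NUDT19 had 1521 and 0 bp and 1300 and 1821 bp. The same comparison for CLDN15 gave 1901 and 0 bp in DMSO and 1202 and 500 bp in A-485. NKX6-3 had 1184 and 0 bp against 1517 and 0 bp, and CEBPE 900 and 800 bp against 1500 and 0 bp. The 2 testable H2AK119ub regions at CTLA4 changed by -0.71 ± 0.43 and 0.12 ± 0.41 (log2, SE; edgeR adjusted p of 0.908 and 0.967). Over the regions with a peak in every library edgeR called 0 of 4515 (0%), with 132 at an unadjusted p under 0.05, and DESeq2 called 0. Without DMSO replicate 3, and then without the replicate block, it called 38.

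H3K27ac after A-485, the mark whose writers the inhibitor targets, could be followed at NUDT19. Its promoter had 2980 and 2601 bp in DMSO (replicates 2 and 4) and 2021 and 3001 bp in A-485, so the treatments overlapped. Reads scaled to the library changed by 0.53 ± 0.36 (log2, SE; edgeR adjusted p of 0.87). Unscaled, the region had 385 and 480 reads in DMSO and 129 and 185 in A-485. All kept peaks held 2709073 and 5647079 reads in DMSO and 780375 and 603895 in A-485. The scaling brings libraries to a common level, so a drop shared by most regions cannot show in the scaled change. CLDN15 and NKX6-3 had 2902 and 2200 bp of H3K27ac in DMSO replicate 4 and 0 bp in the other 3 libraries. That library covered 153 Mb against 20.2 to 44.7 Mb in the others. Both replicate 4 lists of H3K27ac held the input counts of the other treatment. Apart from each other, of the peaks they shared border for border with lists of the other treatment 100% had equal input counts, against 3.85% to 12.2% with lists of their own. Between these 2 lists the share was 10.4%. Whether the ChIP libraries were exchanged as well could not be checked, so the treatments of replicate 4 given here are those of the labels, and the values for NUDT19, CLDN15 and NKX6-3 depend on them. NLRP3, CTLA4 and CEBPE promoters had 0 bp of H3K27ac above the fold filter in all 4 libraries. In the library labelled DMSO replicate 4, weaker peaks covered 3001 bp at CEBPE (log2 fold of 0.84) and 530 bp at CTLA4 (0.50). Over the H3K27ac regions with a peak in every library edgeR called 0 of 8967 (0%). Of these, 662 had an unadjusted edgeR p under 0.05, and DESeq2 called 11. The merged regions numbered 128296, and sites that lost their peak with A-485 were not tested. The absence of calls therefore does not show that H3K27ac was unchanged. The study, with its own peak sets and normalisation on large genomic bins, reports lower H3K27ac at many sites after A-485.

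H3K27me3 at NLRP3 and CTLA4 persisted in A-485. The NLRP3 promoter had 3001, 2473 and 900 bp in DMSO (replicates 2, 3 and 4) and 2773, 2801 and 1373 bp in A-485. The CTLA4 promoter had 2971, 3001 and 2801 bp in DMSO and 2101, 2571 and 1971 bp in A-485, so every A-485 library was below every DMSO library, as at 0.095% of all promoters, most of which carry no H3K27me3. Reads in the region over it, chr2:203857201-203896500, changed by -0.53 ± 0.29 (log2, SE; edgeR adjusted p of 0.882). Most of that lay in replicate 4, with 1382 in DMSO and 543 in A-485 (TMM-scaled CPM), while replicates 2 and 3 had 407 and 383 in DMSO and 374 and 345 in A-485. Without DMSO replicate 4 the change was -0.13, and without A-485 replicate 4 it was -0.14. DMSO replicate 4 covered 22.0 Mb of the genome, against 61.4 to 284 Mb in the other 5. Over the regions with a peak in every library edgeR called 0 of 8822 (0%), with 267 at an unadjusted p under 0.05 and 1 called by DESeq2.

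Families and pathways of the 6 genes showed few H2AK119ub gains. Of 92 other genes in 6 lists (claudins, inflammasome, T-cell costimulation and checkpoints, C/EBP and myeloid factors, NK homeobox relatives and Nudix hydrolases), 2 (2.17%) gained the mark in shDPPA2, 0 in shDPPA4 and 0 in shDPPA2+4, against 1.38%, 0.35% and 0.77% of all promoters. The 2 were CLDN11, a claudin of myelin and Sertoli cells, which had 0 bp in H2O and 2501 and 2201 bp in DOX, and SPI1, the myeloid factor PU.1, which had 0 bp in H2O and 1654 and 1154 bp in DOX. Losses numbered 1 in shDPPA2 (CEBPG), 7 in shDPPA4 and 2 in shDPPA2+4 (CLDN1 and TXNIP), or 1.09%, 7.61% and 2.17%, against 2.7%, 4.84% and 2.21%. Of the 20 Nudix hydrolases other than NUDT19, 4 lost the mark in shDPPA4, where NUDT19 gained it. NUDT2 had 1169 and 900 bp in H2O, NUDT18 2382 and 1300 bp, NUDT4 525 and 900 bp and NUDT7 800 and 900 bp. In DOX the 4 had 0 bp, except for 214 bp at NUDT7 in replicate 3. The other losses in shDPPA4 were the inflammasome genes NLRP1 and TXNIP and the homeobox gene NKX2-8 (2714 and 1914 bp in H2O, 0 bp in DOX). Of the 14 T-cell genes none was gained or lost in any line.

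Over the 12 hairpin libraries, NKX6-3 and CLDN15 were the nearest genes to each other on other chromosomes, at a mean absolute difference of 284 bp in H2AK119ub promoter coverage. These distances include the line that chose each gene, so that likeness is partly built in. Without shDPPA2 the distance of CLDN15 and NKX6-3 was 376 bp, and 207 promoters were nearer to CLDN15 and 29 nearer to NKX6-3. The next for CLDN15 was ADGRG7 (300 bp), and for NKX6-3 CLIC3 (331 bp). NLRP3 was nearest to PLPPR1 (318 bp) and TREM2 (326 bp), and CTLA4 to TPD52L2 (395 bp) and ACTL10 (440 bp). CEBPE was nearest to HLA-DOA (482 bp) and OSBPL7 (483 bp), and NUDT19 to ENTPD1 (357 bp) and DR1 (365 bp). Without the line that chose each gene, these distances were 336 and 275 bp for CEBPE and 143 and 304 bp for NUDT19. They were then 225 and 334 bp for NLRP3 and 255 and 475 bp for CTLA4. Chromatin classes agreed within some of these pairs and differed within others. HLA-DOA and OSBPL7 carried neither mark in H2O of all 3 lines, as CEBPE did. DR1 carried H3K4me3 alone there, as NUDT19 did. TPD52L2 carried H3K4me3 alone in H2O of all 3 lines, where CTLA4 carried H3K27me3 alone, and PLPPR1 was marked by both, where NLRP3 had no H3K4me3.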

How the data were processed

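The authors trimmed reads with Trim Galore 0.6.6, aligned them with BWA 0.7.13 to hg38 (mm10 for mouse spike-in reads) and called peaks per library against input with EPIC2. The deposited lists give ChIP and input read counts, p-values with FDR, a score and a log2 fold over input for each peak. Peaks with log2 fold above 1 and FDR under 0.05 were kept, 19344 to 179298 in each library, holding 390762 to 19379794 reads, and thin libraries can show only strong peaks. Lists of a line and treatment shared an input, except H3K27ac replicate 4, whose lists held the input counts of the opposite treatment. EPIC2's columns also appear in the deposited SUZ12 list, although the study's methods name MACS2 for that factor.

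Promoters reach 1500 bp to each side of the Ensembl canonical TSS (GENCODE 44). Covered bp of H3K27me3 and H3K4me3 were compared by exact sign-flip tests over line and replicate, adjusted (Benjamini-Hochberg) over 24 tests. ChIP counts of regions with a peak in every library were fitted by edgeR 4.0.16 (quasi-likelihood, TMM, replicate number as a block, calls at adjusted p under 0.05 and absolute log2 change of at least 0.5), after tests on simulated data. They count reads in called peaks only. The study made replicates as complete batches, and deviations of same-numbered libraries from their group means correlated at -0.086 to 0.681 for H3K27me3, 0.330 to 0.509 for H3K4me3, 0.240 to 0.708 for H2AK119ub and 0.366 to 0.543 in the inhibitor sets. The study calls its replicates biological without saying here whether they were separate cultures, so p-values measure the spread between these libraries. DESeq2 1.42.0, RLE size factors, other filters and left-out libraries were alternatives. The members and gene lists were chosen with earlier results of these data known. Named genes are the members, neighbours within 10 kb, gained promoters ranked next, the 2 nearest promoters of each member, and list genes gained or lost. ASTN1 and KCNJ6, ranked among the members, were named after their values were seen.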

Additional observations from a re-analysis of the deposited data

Results flagged for a closer look

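Some changes went in opposite directions in different hairpin lines, in every library pair of each, and the differences themselves were not tested. H2AK119ub over the CTLA4 promoter rose by 2250.5 bp on average in shDPPA2 and changed by -2715.5 bp in shDPPA4, a difference of 4966 bp. Against shDPPA2+4, where the mean change was -565 bp, the difference was 2815.5 bp. These differences used the line that chose the gene. CLDN15 changed by 2800 bp in shDPPA2 and -802 bp in shDPPA4, a difference of 3602 bp, again with the choosing line included. H3K4me3 over NUDT19 with 10 kb on each side changed by -800 bp in shDPPA4 (5200 to 4800 bp and 5600 to 4400 bp) and by 650 bp in shDPPA2+4 (4400 to 4900 bp and 4400 to 5200 bp), a difference of -1450 bp.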

How the results depend on the processing

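Outside the line that chose them, the count of gained members stayed at 0 with a minimum of 1 or 1500 bp, with all deposited peaks and with a log2 fold above 2, and was 0 to 2 without either replicate. In the line that chose them, 6 members were gained, 3 with all deposited peaks (CTLA4, NUDT19 and CEBPE were not) and 1 (NKX6-3) with a log2 fold above 2, settings applied there after the data were seen, and 6 without either replicate. With a minimum of 1 bp, CTLA4 and CEBPE were not gained there, since 1 H2O library of each held 271 and 55 bp. With 1500 bp NUDT19 was not, at 1421 bp in DOX replicate 3. No coverage test of H3K27me3 or H3K4me3 passed under any alternative run, the smallest unadjusted p being 0.02778. For H3K27me3 with DOX, 0 regions became 1470 with DESeq2 and 0 to 2983 when 1 library was left out. For H3K4me3, 115 became 41 with DESeq2, 0 without the replicate block, and 42 to 333 when 1 library was left out. For H2AK119ub over the other lines, 0 became 20 with DESeq2 and 0 to 0 on leaving out a library. With A-485, H3K27ac went from 0 to 11 with DESeq2 and stayed 0 to 0 without single libraries, H3K27me3 gave 1 with DESeq2 and 0 to 2 without single libraries, and H2AK119ub gave 0 to 38 without single libraries. Leaving out a library of the H3K27ac or H2AK119ub inhibitor set required dropping the replicate block, which was added after the data were seen. Of 266 alternative values for the 21 regions at members, 264 kept their side of the threshold and 2 (the CTLA4 H3K27me3 domain) passed it. The replicate block changed no other count of calls. The causes of these shifts were not tested. With 2 libraries in most groups, coverage differences at single promoters often rest on peaks with few reads.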
